A study of Mus musculus with 2 samples.

Results

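Genes of the Notch pathway, the Hes, Hey and Id families and the proneural and intermediate progenitor factors were followed in the cerebral cortex of newborn mice. The 33 genes were chosen by name, with earlier results of these data known. Each was read through the probe sets that the platform annotation gives to that gene alone. The 33 genes had 65 of the 34945 probe sets that name 1 gene, and the array named 18193 genes in all. The study set RNA of a double knockout pool, MRTF-A-/-;MRTF-BF/F;GFAP-Cre, against RNA of a control pool, MRTFA-/-;MRTF-BFlox/Flox. Both pools are thus labelled null for Mrtfa, and the double knockout pool adds Cre recombinase, named for the GFAP promoter, to floxed Mrtfb. SRF, a transcription factor, is activated through MRTF-A and MRTF-B. Each pool held cortical RNA of 3 animals and was read on 1 Affymetrix array. The age is given as postnatal day 0 for both pools, but the description of the double knockout sample gives day 1.

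With 1 array per group no difference below has a replicate check, a test or a p-value. All differences are log2 of the double knockout signal over the control signal. They were centred on the median of probe sets bright on both arrays, which moved them by 0.0037. Signals under a floor of 178.6, the median of all signals, were set to the floor, and a gene counted as measured if its brightest probe set was not under the floor in both pools. The probe sets of a gene that read above it are also given. Where an SD stands beside a gene it covers the spread between that gene's probe sets, not between animals. That spread, pooled over 4858 genes, was 0.18 log2. In whole tissue, fewer cells of a type and less RNA per cell cannot be told apart.

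The targeted gene Mrtfb read 2482 in the double knockout pool and 3359 in the control pool on its brightest probe set, 1.36-fold lower. Mrtfa, labelled null in both, read 262.4 in the double knockout pool and 601.6 in the control pool, so the pools differed in a gene for which they carry the same label. Srf differed by -0.31. Whether these probe sets read the deleted parts was not analysed here.

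Notch is a receptor that is cleaved when a ligand on a neighbouring cell binds it. Its released intracellular part joins Rbpj and Maml proteins in the nucleus and switches on Hes and Hey genes, whose products are repressors of the bHLH (basic helix-loop-helix) class. In the embryonic cortex Hes proteins hold radial glia as progenitors by repressing proneural genes such as Neurog2. Id proteins lack a DNA-binding region and tie up the E-protein partners of proneural factors. Insm1 and Eomes mark the intermediate progenitors that radial glia give rise to, and Neurod factors follow in differentiating neurons.

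Of the 33 genes 29 were measured. In 28 the signal cleared the floor in both pools, in 1 in the double knockout pool alone, and 4 were under it in both. Among the 29, 15 were higher and 14 lower in the double knockout pool, where 6157 of all 11629 measured genes were higher and 5472 lower. The 29 split into 17 higher and 12 lower after quantile normalization or without centring. Their median was 0.0093 log2 against 0.011 over all measured genes. A signal ratio of 5 to 4 between the pools (0.32 log2) served as the lower threshold. None of the 29 was higher by that ratio, where 3.44% of all measured genes were. Insm1, Dll3 and Id4 were lower by it, which is 10.3% of the 29 against 5.54% of all measured genes. Averaged over their probe sets, Id4 at -0.29 no longer passed the ratio, while Notch3 at -0.39 and Jag2 at -0.41 did, where 4.98% of all measured genes were lower by it. Only Id4 passed with a floor at the 75th percentile, where 2.38% of all measured genes did, or with the floor added to each signal as a pseudocount, where 2.81% did. No gene among the 29 reached 1.5-fold on its brightest probe set, where 0.370% of all measured genes were higher and 0.774% lower. The share past the 5-to-4 ratio in either direction depended on signal, at 15.8% of the 3672 dimmest genes with a signal in both pools and 2.32% of the 3671 brightest. Insm1 and Dll3 are 2 of the 10 members among those dimmest genes, and Id4 is 1 of the 7 among the brightest.

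**Figure D1:**
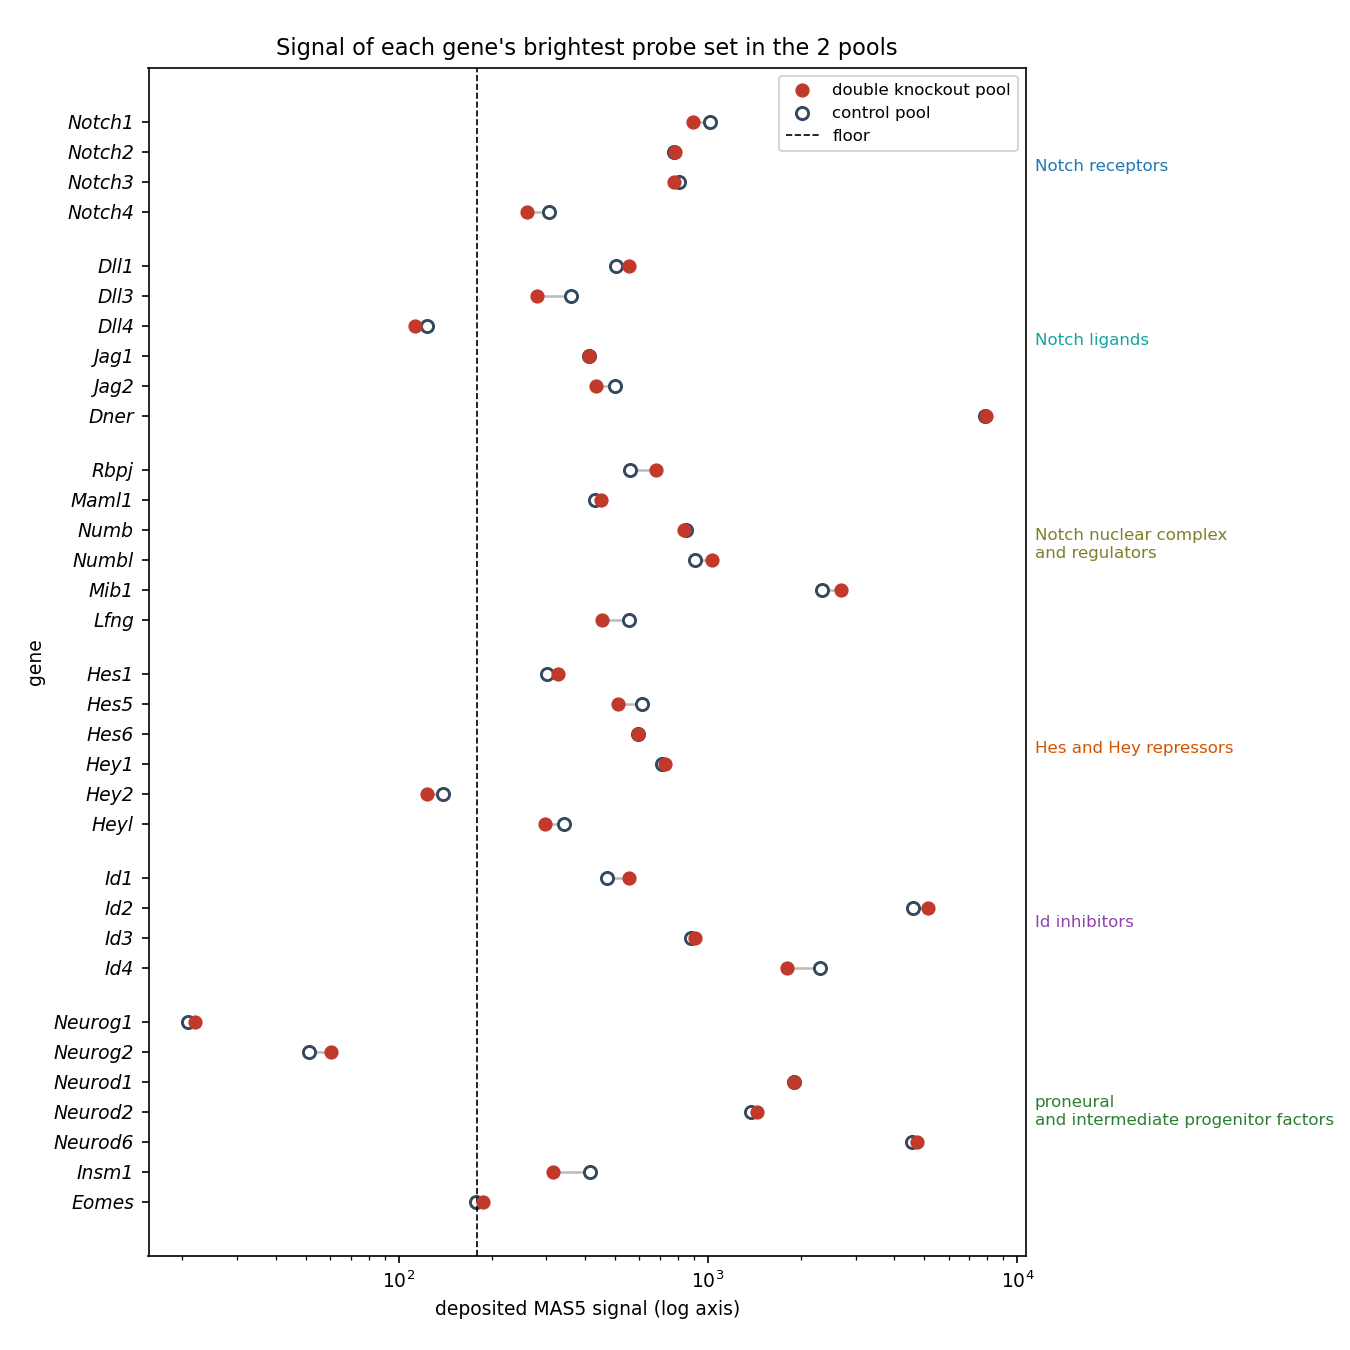
The deposited MAS5 signal on a log axis for the brightest probe set of each of the 33 genes, with filled points for the double knockout pool and open points for the control pool, grouped by role. The dashed line is the floor of 178.6. Dll4, Hey2, Neurog1 and Neurog2 lie left of it in both pools, and the widest gaps are at Insm1, Dll3 and Id4.

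Promoters are shown for 3 genes with lower signals, Hes5 as the classical Notch target, Lfng as a Notch modifier and Id4 as the Id gene that differed from its family. They were chosen with their values known, and all 3 are among the 5 genes with TGGGAA named below. Insm1 and Dll3, which were lower by more, are not among those 5, and Rbpj, which was higher, is. The sequences are the 250 bases before the RefSeq start site in build GRCm38.p6, plus strand, 5′ to 3′, at chr4:154960673-154960922 for Hes5, chr5:140607091-140607340 for Lfng and chr13:48260866-48261115 for Id4. Capitals mark the letters TGGGAA, the core that Rbpj binds, on either strand, its longer form GTGGGAA, which contains the core, and the CArG box, which SRF binds.
Hes5: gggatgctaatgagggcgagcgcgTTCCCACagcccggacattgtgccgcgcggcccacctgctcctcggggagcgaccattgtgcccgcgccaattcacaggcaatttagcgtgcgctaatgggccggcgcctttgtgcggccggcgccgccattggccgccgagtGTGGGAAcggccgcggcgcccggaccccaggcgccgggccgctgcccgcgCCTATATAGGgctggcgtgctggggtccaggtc
Lfng: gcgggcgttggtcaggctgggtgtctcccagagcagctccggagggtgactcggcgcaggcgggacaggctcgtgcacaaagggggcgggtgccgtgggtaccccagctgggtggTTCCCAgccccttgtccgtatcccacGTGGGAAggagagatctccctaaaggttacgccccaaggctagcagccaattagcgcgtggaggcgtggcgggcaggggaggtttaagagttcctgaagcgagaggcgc
Id4: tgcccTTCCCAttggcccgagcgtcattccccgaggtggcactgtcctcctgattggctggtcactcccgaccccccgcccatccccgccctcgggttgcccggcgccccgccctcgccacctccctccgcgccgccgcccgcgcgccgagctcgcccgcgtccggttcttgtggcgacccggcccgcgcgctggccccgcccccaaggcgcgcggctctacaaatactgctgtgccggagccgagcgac
GTGGGAA occurred at 2 places in the Hes5 window, 226 to 220 and 83 to 77 bases before the start, and at 1 place in that of Lfng, 109 to 103 bases before it. Lfng held a second TGGGAA at 135 to 130 bases and Id4 a single one at 245 to 240 bases. The one CArG box lay in Hes5, 33 to 24 bases before the start, and includes the letters TATATA. Of the 33 genes 27 had promoters in the table, 32 in all. Windows of 5 of the 27 (Rbpj, Lfng, Hes5, Hey2 and Id4) held TGGGAA, or 18.5% against 24.1% of all 27025 genes in the table. GTGGGAA was found in 3 of them (Lfng, Hes5 and Hey2), or 11.1% against 6.18%, and a CArG box in 1, or 3.70% against 1.62%. These are matches of letters, and whether any factor binds there was not tested.

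The 4 Notch receptors had a median of -0.12 log2, and 3 of the 4 were lower in the double knockout pool. That median was -0.21 with the probe sets of a gene averaged, and also without probe sets of the suffixes _x_at and _s_at. Notch1, the main receptor of cortical progenitors, read 893.3 in the double knockout pool and 1011.3 in the control pool, and its dimmer probe set read 279.2 in the double knockout pool and 313.8 in the control pool. Both probe sets of Notch1 were lower by nearly the same amount, a mean of -0.18 ± 0.01 (SD, 2 probe sets). Notch2, which is also found in cortical progenitors, differed by 0.01, with 781.4 in the double knockout pool and 774.4 in the control pool. Notch3, the receptor of mural cells of blood vessels, gave unlike readings. Its brightest probe set read 777.8 in the double knockout pool and 805.1 in the control pool, a difference of -0.05. The other one read 196.1 in the double knockout pool and 325.1 in the control pool, a difference of -0.73. The brightest of these carries the suffix _s_at, which marks a probe set that may read several transcripts. Notch4, the endothelial receptor, was lower by 0.23 at 260.3 in the double knockout pool and 305.1 in the control pool, and its other 2 probe sets stayed under the floor.

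Endothelial markers had a median of -0.12, with 7 lower and 4 higher among 11 measured. Of all 11629 measured genes 5472 were lower and 6157 higher. The summed signal of the 11 markers was 5411 in the double knockout pool and 5523 in the control pool. Their median was -0.08 without probe sets of the suffixes _x_at and _s_at. With the floor at the 75th percentile it was 0.04, with 2 of 3 higher. Sox17, Slco1a4 and Pecam1 each differed by -0.22 on their brightest probe set and Tek by 0.31, and none of the 11 was under the floor. The 2 probe sets of Sox17 averaged -0.12 ± 0.15 (SD). The median of 8 pericyte and smooth muscle markers was -0.02, and Tbx18 stood at 0.74, Vtn at 0.35, Acta2 at -0.24 and Cspg4 at -0.20, though the 2 probe sets of Cspg4 averaged 0.0071 ± 0.29 (SD). Their part in the differences of Notch3 and Notch4 was not tested.

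Among the ligands, which neighbouring cells present to the receptors, Dll1 and Dll3 differed in opposite directions. Dll1, which activates Notch in neighbours of a differentiating cell, read 553.4 in the double knockout pool and 503.9 in the control pool, 0.13 higher. Dll3, a divergent ligand that acts within its own cell to inhibit Notch, read 279.7 in the double knockout pool and 361.8 in the control pool, 1.30-fold lower. Each of these genes has 1 probe set. The Serrate-type ligand Jag1 was nearly equal on its brightest probe set at 413.5 in the double knockout pool and 412.8 in the control pool. Another probe set of Jag1 differed by -0.38, with 272.8 in the double knockout pool and 354.5 in the control pool. Jag2 was lower on both of its probe sets, at 435.1 and 240.2 in the double knockout pool, against 501.2 and 364.4 in the control pool. The Jag2 differences were -0.21 and -0.61, the second past 1.5-fold, and their mean was -0.41 ± 0.28 (SD, 2 probe sets). Dner, a neuronal transmembrane ligand, had a mean of 0.05 ± 0.06 (SD, 2 probe sets), with 7922 in the double knockout pool and 7847 in the control pool on the brightest one. Dll4, the ligand of sprouting endothelium, stayed under the floor at 113.0 in the double knockout pool and 123.6 in the control pool. The 5 measured ligands had a median of -0.0013.

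The nuclear complex and regulators had the highest median of the 6 groups, 0.12, with 4 of 6 genes higher in the double knockout pool. Rbpj, the DNA-binding partner of Notch, read 681.0 in the double knockout pool and 560.9 in the control pool, 1.21-fold higher and the largest positive difference on the brightest probe sets of the 29 genes. Its 3 probe sets differed by 0.28, 0.16 and -0.07, so they did not share a direction, and their mean was 0.12 ± 0.18 (SD). The coactivator Maml1 differed by 0.06, at 451.7 in the double knockout pool and 431.3 in the control pool. Mib1, the ubiquitin ligase that lets ligands be taken up and so activate the receptor, was higher on both measured probe sets (mean 0.17 ± 0.06, SD). Its brightest probe set read 2693 in the double knockout pool and 2329 in the control pool. Numbl, a Numb relative that inhibits Notch, read 1028 in the double knockout pool and 904.8 in the control pool, 0.18 higher, while Numb itself, at 834.1 in the double knockout pool and 846.1 in the control pool, differed by -0.02. Lfng, the glycosyltransferase that changes which ligands Notch answers to, went the other way. It read 454.5 in the double knockout pool and 554.2 in the control pool, 1.22-fold lower, on the 1 of its 2 probe sets above the floor.

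**Figure D2:**
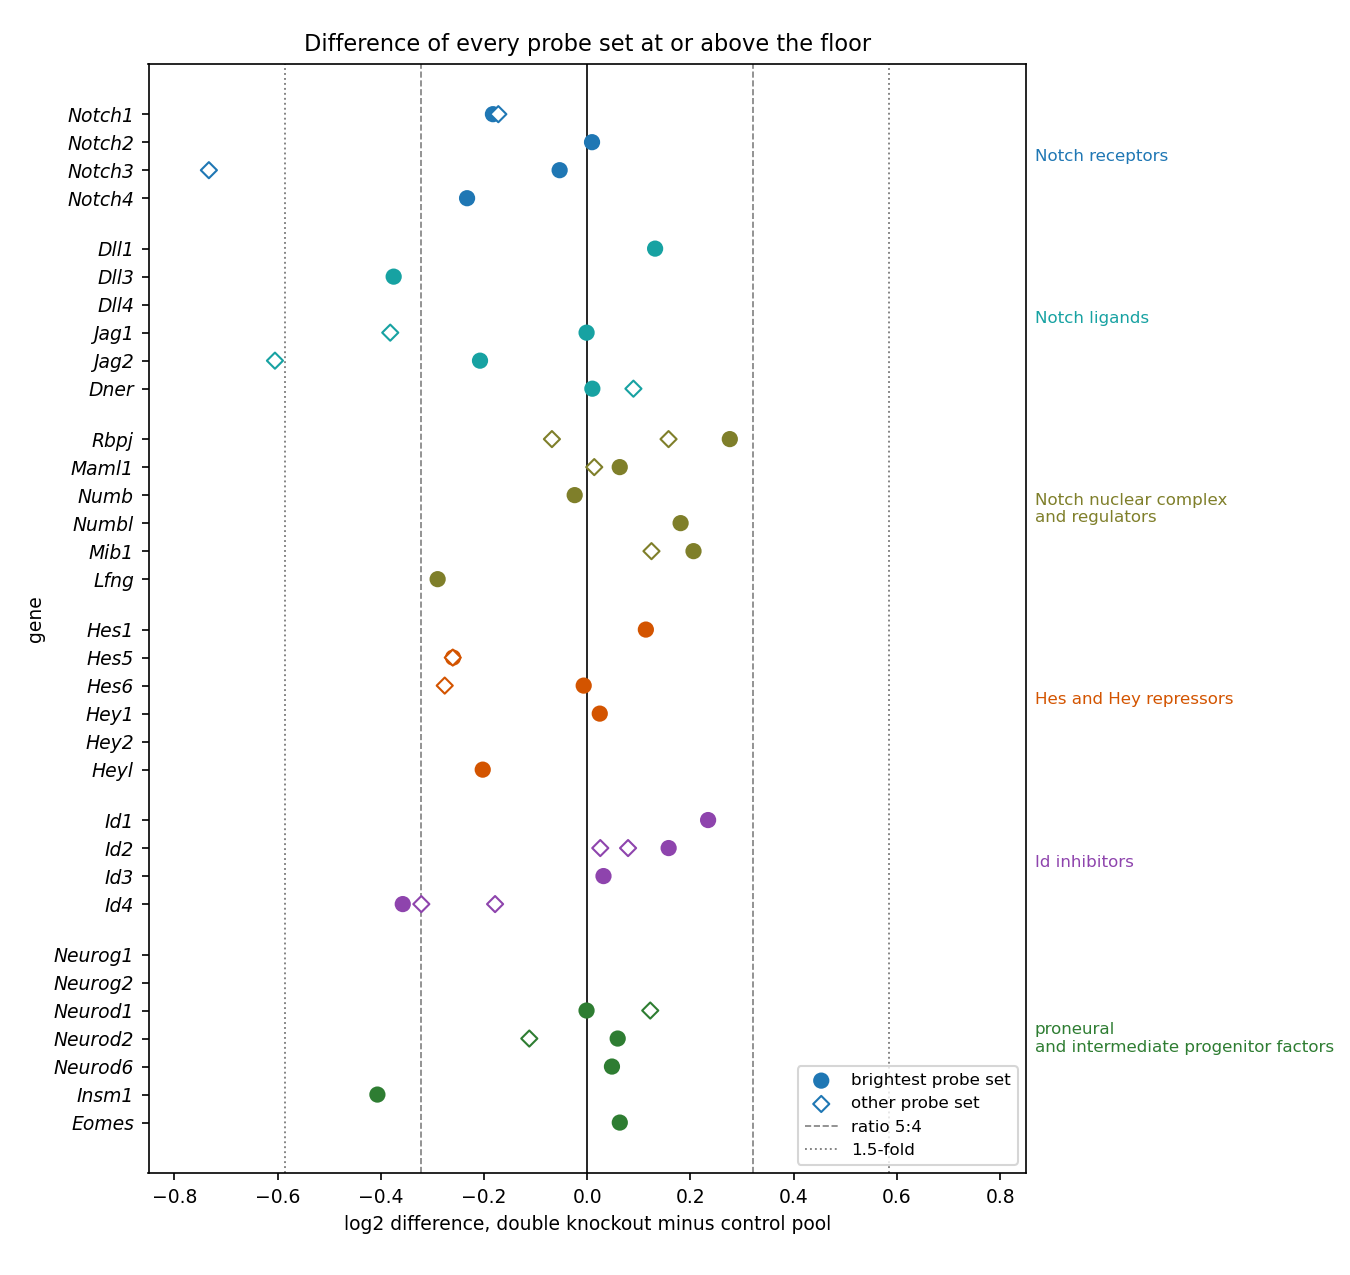
Log2 difference, double knockout minus control pool, of each probe set of the 33 genes that cleared the floor in either pool, with filled circles for the brightest probe set of a gene and open diamonds for the others. Dashed and dotted lines mark the 5-to-4 ratio and 1.5-fold. Both points past 1.5-fold, of Notch3 and Jag2, are second probe sets, and the 3 points of Id4 and both of Hes5 lie to the left of 0.

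The Hes and Hey genes did not share a direction. Hes5 was lower in the double knockout pool on both of its probe sets, with 510.7 and 312.1, against 610.0 and 372.9 in the control pool. Both Hes5 differences were -0.26. Hes1, the other main Notch effector of cortical progenitors, was 0.11 higher on its only probe set, at 327.9 in the double knockout pool and 302.3 in the control pool. Hey1 differed by 0.02, at 724.3 in the double knockout pool and 710.4 in the control pool. Heyl, a Hey gene of vascular smooth muscle, was 1.15-fold lower at 297.2 in the double knockout pool and 341.1 in the control pool. Hes6, which opposes Hes1 and favours neuron formation, read 593.7 in the double knockout pool and 595.0 in the control pool on a probe set with the suffix _x_at for possible cross-hybridisation. Its other probe set, without that suffix, differed by -0.28. Hey2 was under the floor at 123.6 in the double knockout pool and 139.0 in the control pool. The group's median was -0.0069 over 5 genes, but it was -0.20 when probe sets with the suffixes _x_at and _s_at were left out.

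Within the Id family, Id4 differed from the other 3 genes. Id4, which like Id2 is found in neural progenitors, was lower on all 3 of its probe sets. They read 1805, 1745 and 710.2 in the double knockout pool, against 2306, 2175 and 801.7 in the control pool. Its differences were -0.36, -0.32 and -0.18, a mean of -0.29 ± 0.09 (SD), and the brightest probe set was 1.28-fold lower, with the next one just short of the 5-to-4 ratio. Id1, a target of BMP signalling, read 555.3 in the double knockout pool and 470.9 in the control pool, 1.18-fold higher on 1 probe set. Id2, found in cortical progenitors and in neurons, was higher on all 3 of its probe sets, with a mean of 0.09 ± 0.07 (SD), and its brightest one read 5135 in the double knockout pool and 4591 in the control pool. Id3, often expressed together with Id1, differed by 0.03, at 904.5 in the double knockout pool and 882.7 in the control pool. Meningeal and fibroblast markers, of which all 11 measured were higher in the double knockout pool, had a median of 0.23 and a summed signal of 10257 in the double knockout pool and 7954 in the control pool. Aldh1a2 at 0.68, Igf2 at 0.59, Islr at 0.53 and Ogn at 0.51 differed most among those above the floor in both pools, and Foxd1 was under the floor. The probe sets of Ogn averaged 0.27 ± 0.34 (SD, 2 probe sets). Microglia and macrophage markers had a median of 0.22, with 7 of 11 higher, Mrc1 at 0.68, C1qc at 0.46, C1qb at 0.37 and P2ry12 at -0.37, and Trem2 was under the floor. Their summed signal was 8420 in the double knockout pool and 7675 in the control pool. The part of either in the Id1 and Id2 values was not tested.

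**Figure D3:**
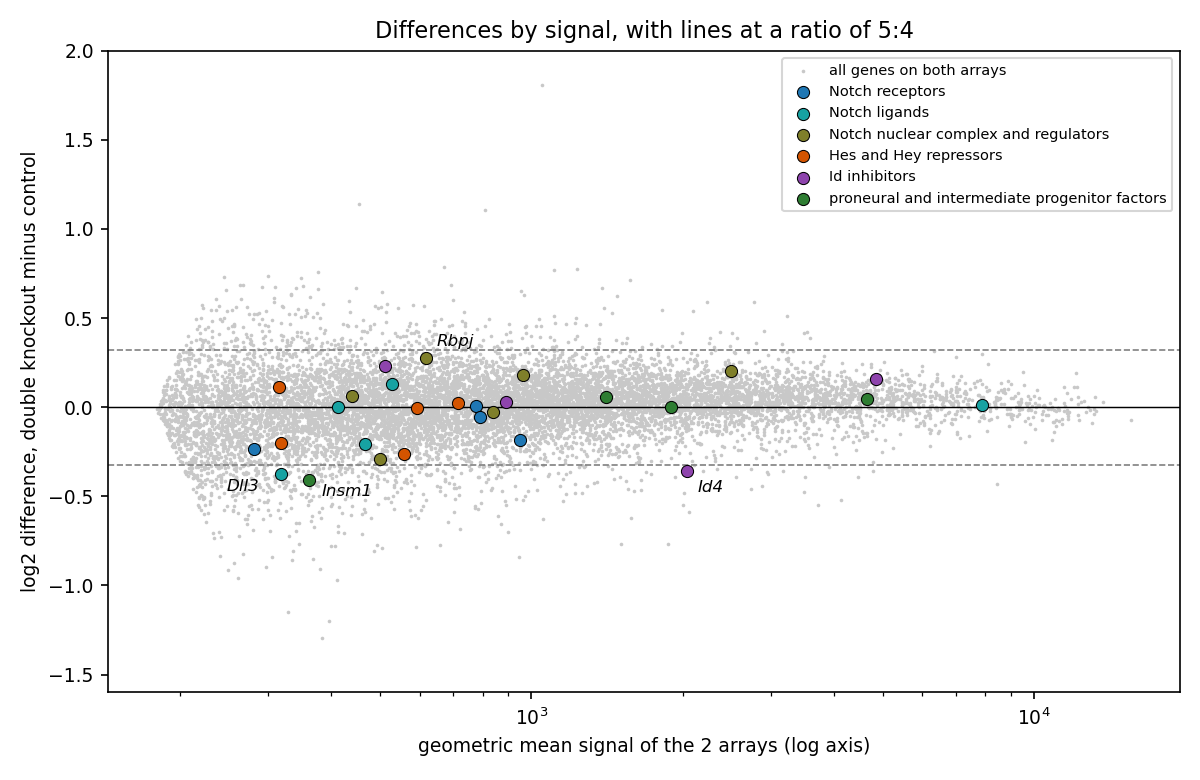
Log2 difference, double knockout minus control pool, against the geometric mean signal of both arrays on a log axis, with grey points for all genes above the floor in both pools and coloured points for the 28 members among them. Dashed lines mark the 5-to-4 ratio. Insm1 and Dll3 lie where grey points spread widely, and Id4 lies where few grey points pass the lower line.

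Among proneural and neuronal differentiation factors, Insm1 was lower in the double knockout pool, Neurod1, Neurod2 and Neurod6 lay within 0.06 of 0 on their brightest probe sets, and the other 3 were not above the floor in both pools. Insm1, a zinc-finger repressor that promotes the formation of intermediate progenitors, read 314.2 in the double knockout pool and 415.4 in the control pool, 1.33-fold lower and the largest difference on the brightest probe sets of the 29 genes. Its other probe set was under the floor, at 117.9 in the double knockout pool and 151.0 in the control pool. Eomes, the T-box factor of the same cells, also called Tbr2, lay at the floor. It read 187.1 in the double knockout pool, just above the floor, and 177.4 in the control pool, just under it, at least 1.04-fold higher. Neurod1 had a mean of 0.06 ± 0.09 (SD, 2 probe sets), with 1898 in the double knockout pool and 1894 in the control pool on the brightest one. The probe sets of Neurod2 differed by 0.06 and -0.11. Neurod6, a factor of pyramidal neurons, read 4738 in the double knockout pool and 4572 in the control pool, a difference of 0.05. The proneural genes Neurog2, at 60.5 in the double knockout pool and 51.2 in the control pool, and Neurog1, at 22.0 in the double knockout pool and 20.9 in the control pool, were under the floor. The 5 measured genes had a median of 0.05.

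Agreement between probe sets could be read for the 14 genes with at least 2 of them above the floor in both pools. All were lower in 7 (Notch1, Notch3, Jag1, Jag2, Hes5, Hes6 and Id4), all were higher in 4 (Dner, Maml1, Mib1 and Id2), and they went both ways in Rbpj, Neurod1 and Neurod2. These counts were not made for all 4858 genes with at least 2 such probe sets, so no background share stands beside them. The brightest probe sets of Jag1, Hes6, Dner and Neurod1 lay within 0.01 of 0 and changed sign with the centring. Without centring both probe sets of Neurod1 were higher and those of Jag1 went both ways. Of the 45 single probe sets above the floor in both pools, 21 were higher and 24 lower. Past the 5-to-4 ratio there were 6 lower and 0 higher, where 6.07% of all 18877 such probe sets on the array were lower and 3.37% higher. The 6 belong to Notch3, Dll3, Jag1, Jag2, Id4 and Insm1. All but that of Id4 read between 196.1 and 415.4, in the signal range of the 3672 dimmest genes. Of those genes 15.8% passed the ratio in either direction. The probe sets of Notch3 and Jag2 were also the 2 past 1.5-fold lower, where 0.885% of the 18877 were, and 0 were past it higher, where 0.376% were.

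Other genes of the pathway showed no common direction. Of 24 measured genes for the cleavage, glycosylation, endocytosis and turnover of Notch and for its nuclear partners, 12 were higher and 12 lower in the double knockout pool, with a median of -0.0040, or 13 and 11 with a median of 0.013 after quantile normalization. Pofut1, which adds the fucose that Lfng extends, read 476.8 in the double knockout pool and 686.0 in the control pool, 1.44-fold lower, and was the only one of the 24 lower by the 5-to-4 ratio. The protease Furin differed by 0.14 and the fringe enzyme Rfng by 0.11, though the 2 probe sets of Rfng averaged -0.04 ± 0.21 (SD). Psen2, a catalytic subunit of gamma-secretase, differed by -0.10 on its brightest probe set and by a mean of 0.25 ± 0.49 (SD, 2 probe sets). The corepressor Spen differed by -0.18, Dtx3 and Dtx4 each by -0.14, and Nrarp, a feedback inhibitor and Notch target, by -0.12. Dtx2, chosen after its values were seen, was under the floor in the control pool and at least 1.32-fold higher, the only one of the 24 higher by that ratio.

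Related transcription factors and progenitor genes are the nearest comparison for the proneural group. Other bHLH factors had a median of 0.07 over 7 measured genes, with Bhlhe40 at 0.35, past the 5-to-4 ratio, and the E proteins Tcf12, Tcf3 and Tcf4 at 0.15, 0.12 and 0.07. The probe sets of Tcf4 averaged -0.04 ± 0.25 (SD, 6 probe sets) and those of Tcf12 0.40 ± 0.45 (SD, 3 probe sets). Other genes of intermediate progenitors and their young neurons had a median of -0.11, with 5 of 8 lower. With the floor at the 75th percentile their median was -0.00026, with 3 of 5 lower. Sstr2, a somatostatin receptor, read 780.7 in the double knockout pool and 1115 in the control pool, 1.43-fold lower. Rnd2, a small GTPase that Neurog2 controls in migrating cortical neurons, differed by -0.30, Btg2 by -0.20 and Tbr1, the T-box factor of young neurons, by 0.14. The 12 radial glia genes had a median of 0.01, with 7 higher and 5 lower, or -0.02 with 5 higher and 7 lower after loess centring. The largest differences were Emx2 at -0.45, Sox9 at -0.20, Nes at -0.18 and Aldh1l1 at 0.19.

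**Figure D4:**
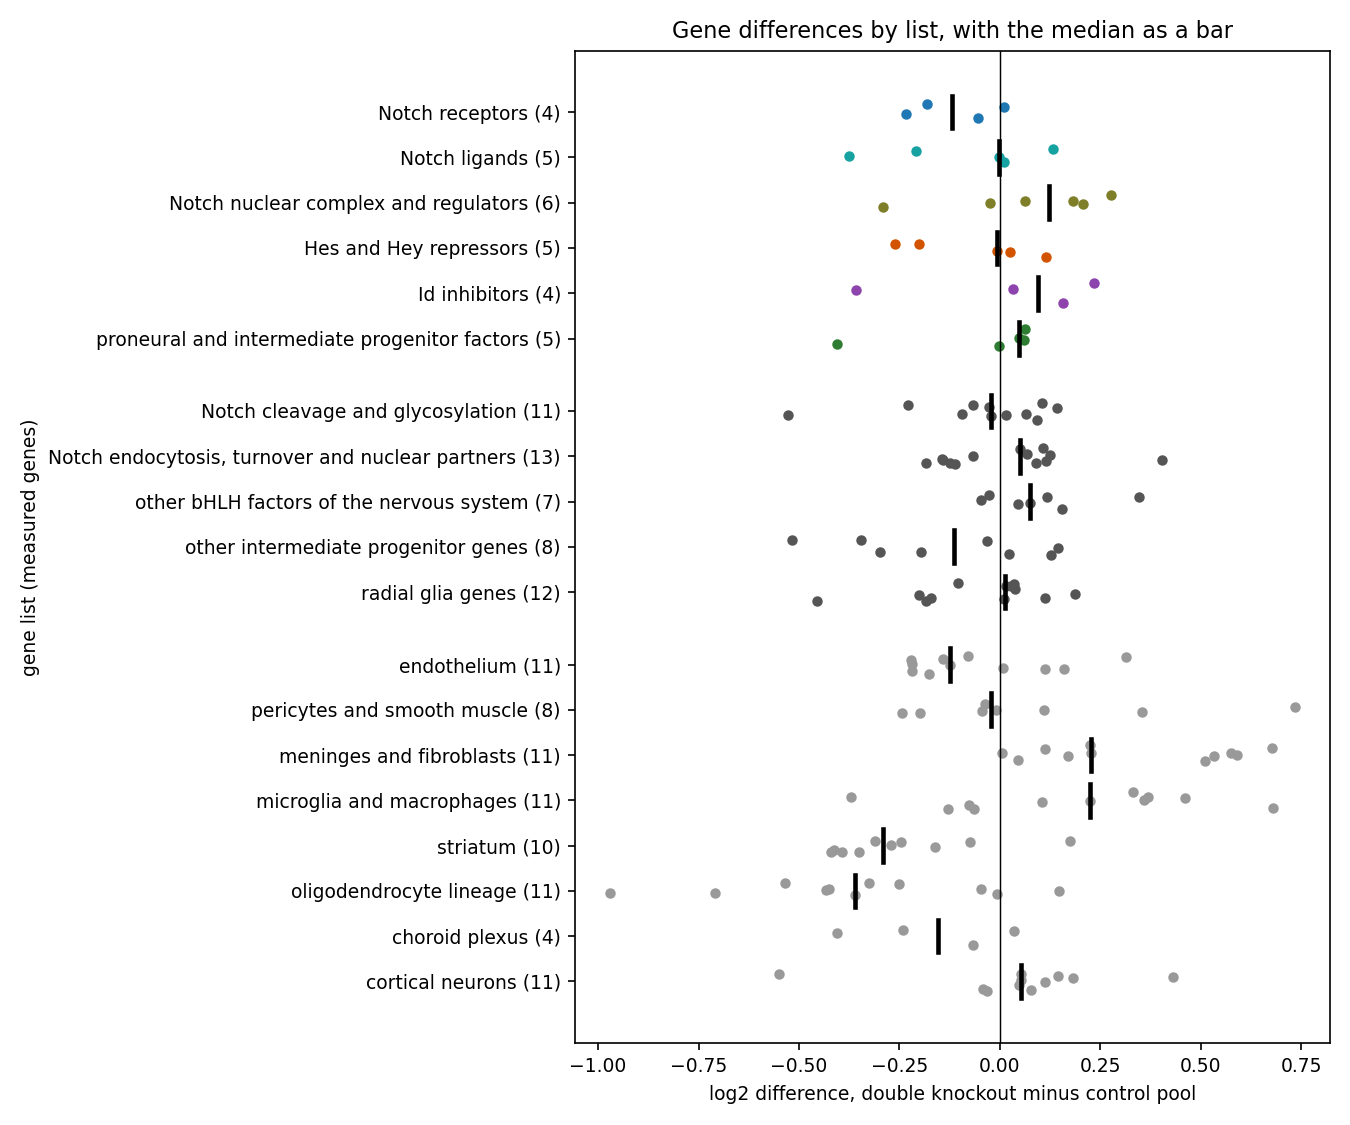
Log2 difference, double knockout minus control pool, of each measured gene by list, with the list median as a black bar and the number of measured genes in brackets. Coloured rows are the 6 groups described, dark grey rows related genes and light grey rows markers of other cells. The medians of the 6 groups lie between -0.12 and 0.12, and those of the marker lists between -0.36 and 0.23.

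Markers of cortex and of deeper tissue were both present. All 11 measured markers of cortical neurons, Neurod6 among them, cleared the floor in both pools, with a median of 0.05. They ranged from Slc17a7 at -0.55 to Dcx at 0.43, both past the 5-to-4 ratio. Of 11 striatal markers on the array 10 cleared the floor, with a median of -0.29 and 9 of 10 lower, and Drd2 at -0.42, Six3 at -0.41 and Penk at -0.39 were lowest. Oligodendrocyte lineage markers had a median of -0.36, with 10 of 11 lower, Mobp at -0.97 and Mag at -0.71. The list was not uniform. Pdgfra at 0.15, Olig2 at -0.05 and Cspg5 at -0.0065, chosen after their values were seen, did not reach the 5-to-4 ratio. The probe sets of Pdgfra averaged -0.02 ± 0.24 (SD, 2 probe sets). The 4 measured choroid plexus markers stood at a median of -0.15, between Kcnj13 at -0.41 and Ttr at 0.03. Summed signals of the striatal markers were 14363 in the double knockout pool and 15734 in the control pool, and those of the oligodendrocyte markers 22344 in the double knockout pool and 26469 in the control pool. Their part in the values of Id4, Insm1 and Hes5 was not tested.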

How the data were processed

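Probe set signals are linear intensity values that the authors deposited, made with MAS5 per the submitters' processing notes, with the version not given in the sources used here. Both arrays had a 2% trimmed mean of 500.002. Per the labels' protocols, Trizol RNA of 3 animals was pooled per group and 6 ug total RNA labelled. The number of columns of no listed sample was 0. Array number, 1 per group, limits the precision.

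The 45101 probe sets were named from platform annotation (34945 with 1 gene, 932 with several, 9160 with none, 64 controls set aside). Several-gene probe sets held 0 members. Signals were centred, floored at the 50th percentile and reduced to 1 probe set per gene, that of highest mean log2 signal (Python 3.11.15, statsmodels 0.14.6, numpy 2.4.6, pandas 2.3.3, matplotlib 3.10.9). The steps were run on simulated data with changes larger than any member difference on a brightest probe set. Only medians over sets of changed genes were checked, so recovery of a small difference in a single gene was not tested. The thresholds were a ratio of 5 to 4 (0.32 log2) and 1.5-fold. All 33 members are given, and up to 4 genes of each of 13 other lists, those with the largest absolute difference among genes above the floor in both pools. Members and lists were chosen with earlier results of these data known. Alternatives were no centring, quantile normalization, loess centring (span 0.3), floors at the 25th and 75th percentile, no floor, a pseudocount, the mean over probe sets, and no _x_at or _s_at probe sets. Promoters come from RefSeq.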

Additional observations from a re-analysis of the deposited data

How the results depend on the processing

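The 33 genes were recomputed under 9 alternatives, which gave 249 values for the 29 measured genes. Of these 243 moved by less than 0.18 log2, the pooled SD between probe sets of a gene, and 6 moved by more. None of the genes past the 5-to-4 ratio changed direction. Several settings could hardly move a value. Leaving out the centring shifts a difference by about 0.0037 at most. Without a floor the 28 genes above it in both pools keep their values, and averaging leaves a gene with 1 probe set unchanged. The count of 243 is therefore no measure of how stable the values are. The sign changed under some alternative for 7 genes (Notch2, Jag1, Dner, Numb, Hes6, Neurod1 and Neurod2), all within 0.06 of 0 as reported. The 6 larger moves were Notch3 at -0.39 with the mean over probe sets and -0.73 without _x_at and _s_at probe sets, Jag1 at -0.19 and Jag2 at -0.41 with the mean over probe sets, Hes6 at -0.28 without those suffixes, and Hes5 at -0.05 with the floor at the 75th percentile, which lies at 590.5, above its double knockout signal. The median of the ligands was -0.19 with the mean over probe sets. That of the Hes and Hey genes was -0.090 with no floor, -0.14 with the mean over probe sets and -0.20 without the suffixes. That of the Notch receptors, -0.12 as reported, was -0.21 under each of those settings of probe sets, and that of the Id genes, 0.09 as reported, was 0.0086 under the higher floor. These settings change which genes and probe sets are counted. Id1, at 555.3 in the double knockout pool and 470.9 in the control pool, was not measured under the higher floor. With no floor Hey2 entered the Hes and Hey median.

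In place of 3 genes lower by the 5-to-4 ratio there was 1, Id4, under the higher floor, which left 17 of the genes measured, and 1, again Id4, with the pseudocount. Of all measured genes 2.38% were lower by that ratio under the higher floor and 2.81% with the pseudocount. Without the suffixes 1 gene, Notch3, was past 1.5-fold lower, where 0.782% of all genes were. The ranges over alternatives were -0.41 to -0.27 for Insm1, -0.38 to -0.24 for Dll3 and -0.39 to -0.29 for Id4. Over all measured genes, 400 were higher by the 5-to-4 ratio and 644 lower, against 496 and 517 after quantile normalization. Past 1.5-fold 43 were higher and 90 lower, against 66 and 70 after quantile normalization. Loess centring gave 60 and 72. No paired analysis was possible because each group has 1 array, and no array could be left out.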
